A study of Mus musculus with 6 samples.

Results

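The immediate early genes are genes that cells switch on within minutes of a stimulus, without first making new protein. A set of 10 of them was followed here, namely Fos, Fosb, Jun, Junb, Egr1, Ier2, Atf3, Dusp1, Zfp36 and Nr4a2. The genes were chosen by name, with their levels in each library and their difference between the genotypes already known, so their values below are a description and not evidence for a pattern. All 10 were found among the 55421 genes counted, and all 10 were among the 13849 genes that passed the filter on low counts.

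RNA sequencing was performed on monocytes isolated from spleens of C57BL/6 mice, with 3 IL-4Rα+/+ mice and 3 IL-4Rα-/- mice and 1 library per mouse. IL-4Rα-/- mice lack the alpha chain of the IL-4 receptor in every cell of the body, so a difference between the genotypes need not arise in the monocytes themselves. IL-4Rα+/+ mice carry the intact gene, and the labels give no treatment, age or sex for either group, while the study's methods give one adult age range for all its animals. The comparison asks how the transcriptome of splenic monocytes differs when IL-4 and IL-13 cannot signal through this chain.

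Most immediate early genes are transcribed when kinases of the MAPK cascades activate factors already bound at their promoters, such as CREB at cAMP response elements and SRF with its partners at CArG boxes. Fos and Jun proteins then pair to form AP-1, which drives a later wave of genes, while DUSP1 and ZFP36 switch the response off by dephosphorylating MAP kinases and by clearing AU-rich mRNAs. In monocytes the same genes are known for their response to microbial products and cytokines, and they also respond to handling and dissociation of tissue.

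Promoter sequence upstream of the transcription start was available for 8 of the 10 genes from RefSeq on GRCm38.p6. Ier2 and Egr1 had no entry. The windows below are shown because Fos, Fosb and Dusp1 were among the genes that differed most between the libraries, and because Nr4a2 was the one gene whose 2 highest libraries were not those of the other 9. Each is printed 5′ to 3′ on the strand of its gene, ends at the last base before the start (for Dusp1, 50 bases earlier), and has in capitals the matches to TGACG (the core of a cAMP response element, written CGTCA where it lies on the other strand, and extended to TGACGTCA in Dusp1), to GCGNGGGCG (the EGR site) and to TATAAA.
Fos (chr12:85473740-85473889, plus strand): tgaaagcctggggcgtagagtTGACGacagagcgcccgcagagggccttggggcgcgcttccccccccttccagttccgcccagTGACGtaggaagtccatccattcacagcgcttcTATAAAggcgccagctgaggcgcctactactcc
Fosb (chr7:19310046-19310195, minus strand): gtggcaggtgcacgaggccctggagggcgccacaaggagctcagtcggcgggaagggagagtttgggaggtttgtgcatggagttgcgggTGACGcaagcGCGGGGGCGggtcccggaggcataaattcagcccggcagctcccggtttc
Dusp1 (chr17:26508523-26508622, minus strand): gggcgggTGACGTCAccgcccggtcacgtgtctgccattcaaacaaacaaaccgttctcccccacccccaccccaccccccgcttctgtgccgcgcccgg
Nr4a2 (chr2:57124004-57124153, minus strand): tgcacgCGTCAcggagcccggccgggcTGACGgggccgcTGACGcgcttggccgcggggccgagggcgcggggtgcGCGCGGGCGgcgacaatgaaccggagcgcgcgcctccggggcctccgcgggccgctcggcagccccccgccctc

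The letters TGACG stood on either strand within 250 bases before the start in 6 of the 8 genes (Fos, Fosb, Junb, Atf3, Dusp1 and Nr4a2), against 17.8% of all 32851 promoter windows of the same length. The full element TGACGTCA, which contains TGACG, was found in Dusp1 alone of the 8 genes (bases -143 to -136) and in 1.55% of all windows. The EGR site was present in Fosb, Nr4a2 and Zfp36 and in 4.70% of all windows. A CArG box was found in Zfp36 alone of the 8 genes (CCATAAAAGG, bases -58 to -49) and in 1.47% of all windows. All 250 bases of the Zfp36 window lie in annotated exons of GENCODE M21, so its matches are upstream of the RefSeq start only. In the windows of Dusp1, Atf3 and Fosb, 47, 7 and 6 bases lie in annotated exons. TATAAA on the gene's own strand was found in Fos alone of the 8 genes (bases -33 to -28) and in 7.59% of all windows, and CCAAT on either strand in Jun and Junb and in 33.8% of all windows. The AP-1 site in its form TGANTCA was in none of the 8 windows and in 6.75% of all windows. Longer forms, such as the letters tgacatca in the Jun window, cannot match this pattern and were not searched for. Nr4a2 held 4 matches to TGACG, the most of the 8 genes. These matches are letters in a fixed window and were not tested as binding sites.

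Sequence features of the transcripts do not depend on the libraries. The pentamer ATTTA, the unit of AU-rich elements through which ZFP36 marks an mRNA for decay, occurred at a median of 2.89 per kilobase of 3′ UTR in the 10 genes, against 1.27 over the 11975 coding genes tested that had a 3′ UTR. Dusp1 (5.80 per kilobase), Fos (4.91), Junb (4.12) and Zfp36 (3.88) had the highest densities of the set, whereas Fosb had 0.466 per kilobase, below the median of all coding genes tested, and Ier2 had no ATTTA in its 3′ UTR. The nonamer TTATTTATT was present in Fos, Dusp1 and Zfp36, that is in 30% of the genes against 7.77% of all coding genes tested. The longest annotated transcript of each gene was also shorter, with a median of 2552 bases against 3128 over all 13849 genes tested. Its median GC content was 54.8% against 49.3% over the same 13849 genes. No test was run on these features.

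Each library held 26807281 to 29033297 reads on genes, so that 1 read was worth 0.0338 to 0.0378 CPM (counts scaled to the library total by TMM). Il4ra, the targeted gene, stood at 137, 128 and 177 CPM in IL-4Rα+/+ and at 27.9, 79.4 and 31.8 CPM in IL-4Rα-/-, with a log2 fold change of -1.67 (SE 0.41). IL-4Rα-/- replicate 2 thus had the highest Il4ra level of its genotype. All 10 monocyte markers were expressed in every library. The lowest correlation of log2 CPM between any pair of libraries was 0.963. In 9 of the 10 immediate early genes, IL-4Rα+/+ replicate 3 and IL-4Rα-/- replicate 2 stood above the other 4 libraries. IL-4Rα+/+ replicate 2 stood apart at the low end, as the lowest library in 9 of the 10. The fold change of each gene is also given without the 2 high libraries, with IL-4Rα+/+ replicate 2 kept. Xist, transcribed from the inactive X chromosome, had 15739 counts in IL-4Rα+/+ replicate 1, 13512 in IL-4Rα-/- replicate 3 and at most 103 elsewhere, so each genotype had 1 library with abundant Xist.

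Among the AP-1 genes, Fosb and Fos differed most between mice. Fos (chr12:85473890-85477273, plus strand), whose protein dimerises with Jun proteins, measured 109, 64.7 and 520.1 CPM in IL-4Rα+/+ and 199.6, 488 and 252 CPM in IL-4Rα-/-. Both genotypes had 1 mouse near 500 CPM, and the groups overlapped over the whole range of IL-4Rα-/-. The mean was 231 ± 251 CPM in IL-4Rα+/+ and 313 ± 153 CPM in IL-4Rα-/- (SD, n = 3 each), a log2 fold change of 0.44 (SE 0.78, 95% interval -1.42 to 2.30).

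Fosb (chr7:19302696-19310051, minus strand), a Fos paralogue, spanned the widest range of the set. Its level was 8.75, 3.04 and 118 CPM in IL-4Rα+/+, which is 249, 84 and 3137 reads, and 26.9, 106 and 27.2 CPM in IL-4Rα-/-. Within IL-4Rα+/+ the highest library was 39.0-fold above the lowest, and within IL-4Rα-/- 3.94-fold. The log2 fold change was 0.30 (SE 1.26, 95% interval -2.71 to 3.31), so a change of several fold in either direction lay within the interval.

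Jun (chr4:95049034-95052222, minus strand), the main partner of Fos, measured 133, 79.3 and 262 CPM in IL-4Rα+/+ and 150.5, 223 and 146 CPM in IL-4Rα-/-, a log2 fold change of 0.13 (SE 0.42). Junb (chr8:84974484-84978718, minus strand) measured 311, 271 and 592 CPM against 379, 611 and 410.3 CPM, a log2 fold change of 0.25 (SE 0.33). In both genes the spread within IL-4Rα+/+, 3.30-fold for Jun and 2.19-fold for Junb, exceeded that within IL-4Rα-/-, 1.52-fold and 1.61-fold. Exons of Jun share 232 bases with the antisense gene Junos and those of Junb 173 bases with antisense Prdx2. How reads in these shared bases were counted depends on the strand column kept, which is not given.

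Atf3 (chr1:191170296-191218039, minus strand), a stress-induced bZIP repressor, differed less between mice. It stood at 39.5, 49.1 and 72.3 CPM in IL-4Rα+/+ and at 44.7, 75.5 and 57.1 CPM in IL-4Rα-/-, a log2 fold change of 0.14 (SE 0.27, 95% interval -0.50 to 0.78). It was the only gene of the set with its lowest value in IL-4Rα+/+ replicate 1 rather than replicate 2.

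**Figure D1:**
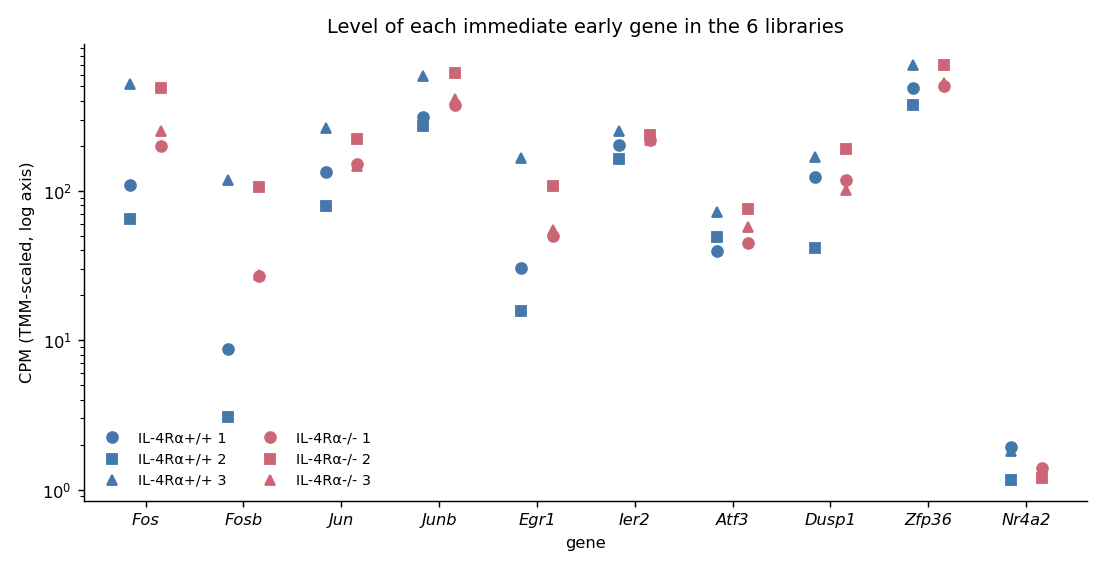
Level of the 10 immediate early genes in each of the 6 libraries, in TMM-scaled CPM on a log axis, with IL-4Rα+/+ in blue and IL-4Rα-/- in red and marker shape giving the replicate number. The IL-4Rα+/+ replicate 3 triangle and the IL-4Rα-/- replicate 2 square lie above the other 4 libraries in every gene but Nr4a2, and Fosb has the widest span, from 3.04 to 118 CPM.

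Among the other transcription factors, Egr1 behaved like the Fos genes. Egr1 (chr18:34859823-34864984, plus strand), a zinc finger activator, measured 30.6, 15.6 and 167 CPM in IL-4Rα+/+ and 49.9, 108 and 54.5 CPM in IL-4Rα-/-. The genotype means were nearly equal, at 70.9 ± 83.2 and 70.8 ± 32.2 CPM, with a log2 fold change of -0.0028 (SE 0.84, 95% interval -2.01 to 2.00). That equality rested on the highest library of IL-4Rα+/+, which was 10.7-fold above the lowest of its own group.

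Ier2 (chr8:84661331-84662852, minus strand), a small nuclear protein gene with a single exon, had the narrowest range of the abundant genes. Its level was 203, 165 and 253 CPM in IL-4Rα+/+ and 218, 238 and 219.6 CPM in IL-4Rα-/-, a log2 fold change of 0.12 (SE 0.15, 95% interval -0.25 to 0.49). The 3 IL-4Rα-/- libraries lay between the lowest and the highest of IL-4Rα+/+.

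Nr4a2 (chr2:57106830-57124003, minus strand), an orphan nuclear receptor, was close to the lower limit of what was counted. It had 55, 32 and 48 reads in IL-4Rα+/+ and 39, 34 and 40 reads in IL-4Rα-/-, that is 1.93, 1.16 and 1.81 CPM against 1.39, 1.19 and 1.35 CPM. The log2 fold change was -0.32 (SE 0.28, 95% interval -0.99 to 0.36). It was the only gene of the set in which IL-4Rα+/+ replicate 3 and IL-4Rα-/- replicate 2 were not the 2 highest libraries, and IL-4Rα-/- replicate 2 was its second lowest.

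The genes that end the response were also highest in IL-4Rα+/+ replicate 3 and IL-4Rα-/- replicate 2. Dusp1 (chr17:26505590-26562128, minus strand), a phosphatase of MAP kinases, stood at 124, 41.5 and 169 CPM in IL-4Rα+/+ and at 119, 190.2 and 101 CPM in IL-4Rα-/-, a log2 fold change of 0.30 (SE 0.49, 95% interval -0.89 to 1.48). IL-4Rα+/+ replicate 2 was far below the other 5 libraries. Zfp36 (chr7:28376784-28380253, minus strand), which encodes the mRNA decay factor tristetraprolin, measured 489, 375 and 692 CPM against 502, 699 and 528 CPM, a log2 fold change of 0.15 (SE 0.24, 95% interval -0.42 to 0.72). Exons of Zfp36 share 125 bases with antisense Gm44710 and those of Dusp1 11 bases with antisense Ergic1.

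Scaled to the length of all annotated exons of each gene, the set covered a wide range of levels. In FPKM (CPM per kilobase of exon), the median over the 6 libraries was highest for Junb at 171 (range 118 to 266), Zfp36 at 148 (108 to 201) and Ier2 at 144 (108 to 166). These 3 genes had overlapping ranges, and each exceeded the next in 4 or 5 of 6 libraries only. Fos followed at 96.0 FPKM (27.5 to 221) and Jun at 46.6 (24.9 to 82.2). Fos was above Jun, and Jun above Dusp1 (36.7, 12.5 to 57.5), in all 6 libraries although the ranges overlapped. The order of Jun and Dusp1 depends on the length used. Dusp1 has 3311 bases of annotated exon but a longest transcript of 2313 bases, whereas Jun has 3189 bases by both. Atf3 stood at 24.7 FPKM (18.3 to 35.04), Egr1 at 11.6 (3.49 to 37.1) and Fosb at 4.33 (0.487 to 19.0). Nr4a2, at 0.338 FPKM (0.285 to 0.476), was the only gene whose range did not overlap that of its neighbour in this order.

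No gene of the set passed the test between the genotypes. With edgeR's quasi-likelihood test, 0 of 10 were called at an adjusted p under 0.15, and the smallest adjusted p was 0.741. Over all genes tested 0% were called, the smallest adjusted p being 0.618. At an unadjusted p under 0.05 the count was 0 of 10 against 8.09% of all genes, with DESeq2 it was 0 of 10 (Fosb had no adjusted p) against 0.571% of all genes, and 0 of 10 had CPM values that did not overlap between the genotypes, against 15.5% of all genes. The fitted log2 fold change was positive for 8 genes and negative for Egr1 and Nr4a2, with a median of 0.15 against 0.0084 over all genes tested. For the 3 genes with the widest intervals the design could not separate a several-fold rise from a several-fold fall, so no difference was detectable rather than shown to be absent.

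**Figure D2:**
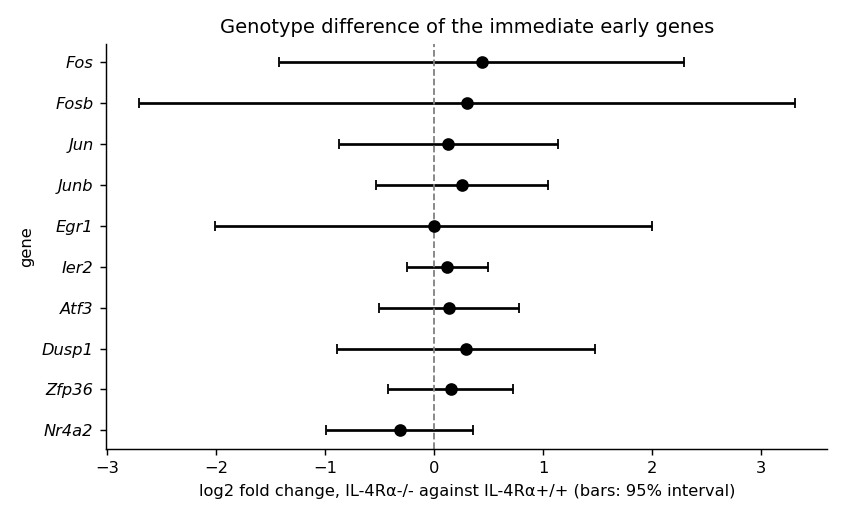
Log2 fold change of each immediate early gene, IL-4Rα-/- against IL-4Rα+/+, as fitted by edgeR, with bars giving the 95% interval and the dashed line at no difference. Every interval includes 0, from Ier2 with the narrowest (-0.25 to 0.49) to Fosb with the widest (-2.71 to 3.31).

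The spread between mice of one genotype set the set apart from most genes in size, though this too was known when the genes were chosen. The median SD of log2 CPM within a genotype was 0.58 over the 10 genes and 0.20 over all genes tested. Ranked among all genes tested, the SD of Fosb lay at percentile 99.7, Egr1 at 98.6, Fos at 98.2, Dusp1 at 94.5 and Jun at 90.4. Junb (83.3), Atf3 (77.1), Zfp36 (72.9), Nr4a2 (64.3) and Ier2 (55.5) were closer to the middle.

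**Figure D3:**
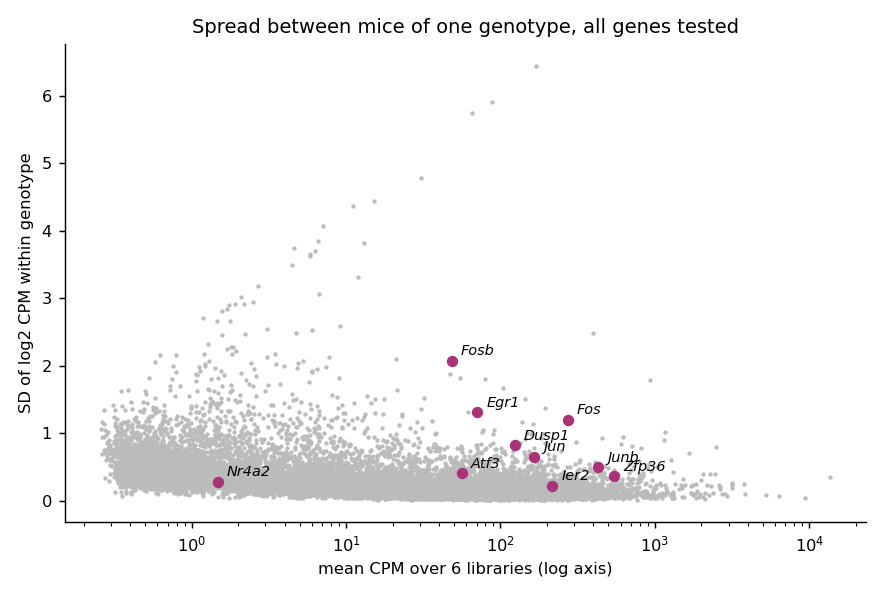
SD of log2 CPM between mice of one genotype (averaged over both genotypes as variances) against mean CPM over the 6 libraries on a log axis, with 1 grey point per gene tested and the 10 immediate early genes in purple. Fosb, Egr1 and Fos lie above nearly all genes of their level, and Ier2 and Nr4a2 lie within the bulk.

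The order of the libraries was shared by most of the set. IL-4Rα+/+ replicate 3 and IL-4Rα-/- replicate 2 were the 2 highest libraries in 9 of 10 genes, against 17.4% of all genes tested. That pair was picked from the values of these same genes, so the share over all genes is only a reference and no test. IL-4Rα+/+ replicate 2 was the lowest in 9 of 10 genes and IL-4Rα+/+ replicate 1 the second lowest in 7. IL-4Rα-/- replicates 1 and 3 were close to each other, with a ratio between 0.782 for Atf3 and 1.18 for Dusp1. Summed over the 10 genes, the level was 1450.3, 1065 and 2847 CPM in IL-4Rα+/+ and 1690.2, 2739.9 and 1797 CPM in IL-4Rα-/-, so the sums of the IL-4Rα-/- libraries lay inside the range of IL-4Rα+/+.

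The genotype values depended on which mice were included. Leaving out IL-4Rα+/+ replicate 3 raised the log2 fold change of Fos to 1.85, of Fosb to 3.18, of Egr1 to 1.61 and of Jun to 0.71, with adjusted p (edgeR) of 0.406 or above for every gene of the set. Leaving out IL-4Rα-/- replicate 2 brought Fos to -0.03, Fosb to -0.68 and Egr1 to -0.44, turned Jun (-0.09), Atf3 (-0.07), Dusp1 (-0.02) and Zfp36 (-0.01) negative and left Junb at 0.01. Leaving out IL-4Rα+/+ replicate 2 brought Fos to -0.0078, Fosb to -0.25 and Egr1 to -0.48, and leaving out IL-4Rα+/+ replicate 1 brought Fosb to -0.19, Egr1 to -0.36 and Atf3 to -0.04. Without IL-4Rα+/+ replicate 2 the values of Jun (-0.19), Dusp1 (-0.10), Zfp36 (-0.04) and Ier2 (-0.02) also turned negative. Egr1 turned positive without IL-4Rα-/- replicate 1 (0.19) or replicate 3 (0.15). The median over the 10 genes ran from -0.07 without IL-4Rα+/+ replicate 2 to 0.69 without IL-4Rα+/+ replicate 3.

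With IL-4Rα+/+ replicate 3 and IL-4Rα-/- replicate 2 both set aside, the remaining mice gave log2 fold changes of 1.38 for Fos, 2.20 for Fosb, 1.18 for Egr1, 0.48 for Jun, 0.44 for Junb, 0.41 for Dusp1, 0.25 for Ier2, 0.25 for Zfp36, 0.20 for Atf3 and -0.17 for Nr4a2, with a median of 0.43. Both remaining IL-4Rα-/- libraries were above both remaining IL-4Rα+/+ libraries in 7 of 10 genes (all but Atf3, Dusp1 and Nr4a2), against 23.2% of all genes tested. No gene of the set was called, and Fos, Fosb and Egr1 each had an adjusted p (edgeR) of 0.422. Il4ra was the only gene called among all genes in that fit (log2 fold change -2.15, SE 0.10, adjusted p = 0.0530 by edgeR). These 2 libraries were chosen for omission after their values in these same genes were seen, so the shares above are no test. IL-4Rα+/+ replicate 2, the lowest library in 9 of the 10 genes, was kept. Without that library alone, Fos stood at -0.0078 and Fosb at -0.25.

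Most genes of the same families did not share the library order of the set. Of 26 listed genes, which include paralogues and the EGR corepressors Nab1 and Nab2, 21 were tested and 0 passed the edgeR test in either direction, with a median log2 fold change of -0.0046 (0.01 without IL-4Rα+/+ replicate 3 and IL-4Rα-/- replicate 2) and a smallest adjusted p of 0.717. At an unadjusted p under 0.05 the count was also 0, and it was 0 with DESeq2 at an adjusted p under 0.15. IL-4Rα+/+ replicate 3 and IL-4Rα-/- replicate 2 were the 2 highest libraries in 3 of the 21 (Ier3, Ier5l and Dusp6) and the 2 lowest in 8 (Egr3, Nab1, Nr4a1, Nr4a3, Dusp5, Dusp9, Dusp16 and Zfp36l1), against 17.4% and 16.3% of all genes tested. These genes were singled out for their library order after their values were seen.

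Nr4a1, the paralogue of Nr4a2 known for its role in Ly6C low monocytes, was abundant at 1439, 1209 and 828 CPM in IL-4Rα+/+ and 1024, 539 and 1116 CPM in IL-4Rα-/-. Its lowest values were in the same 2 libraries that were highest for Fos, and its log2 fold change was -0.38 (SE 0.31), or -0.31 (SE 0.11) without those libraries. Nr4a3 was also lowest in those 2 libraries, at 9.13, 4.81 and 2.15 CPM against 4.11, 1.54 and 4.09 CPM. Ier3, which protects cells from death, ran the other way, at 3.20, 2.89 and 12.0 CPM against 4.86, 20.8 and 4.16 CPM. Dusp6, a phosphatase of ERK, and Zfp36l2, a paralogue of Zfp36, varied little, with log2 fold changes of 0.11 (SE 0.14) and -0.10 (SE 0.08).

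**Figure D4:**
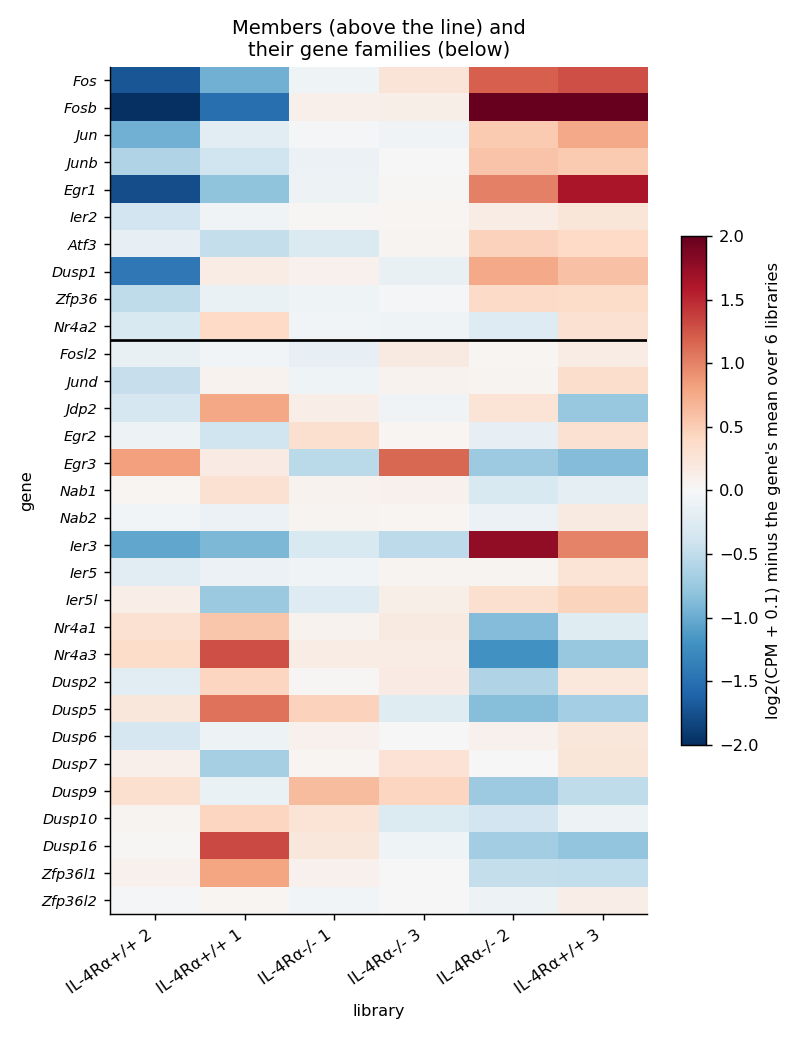
Heat map of log2(CPM + 0.1) minus the mean of each gene over the 6 libraries, with the 10 immediate early genes above the black line and the tested genes of their families below it. Libraries are in the order of their mean level of the 10 genes. The rows above the line, except Nr4a2, turn from blue to red along it, whereas Nr4a1, Nr4a3, Dusp5, Dusp9, Dusp16 and Zfp36l1 turn blue in the last 2 columns.

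A wider list of 38 other early response genes, such as the Klf, Gadd45 and Myc genes, had 34 members tested. None passed the edgeR test (0 of 34, also 0 with DESeq2, median log2 fold change -0.02, or 0.04 without the same 2 libraries), and Plk3, a stress kinase, was the only one with an unadjusted p under 0.05, at 11.1 ± 0.555 CPM in IL-4Rα+/+ and 14.5 ± 2.18 CPM in IL-4Rα-/- (SD, n = 3 each, log2 fold change 0.38). Both lists of early genes together gave 26 positive and 29 negative log2 fold changes. The 2 libraries that were highest for Fos were the 2 highest in 13 of 55, against 17.4% of all genes tested. They were the 2 lowest in 14 of 55, against 16.3%. Of the 34 other early response genes alone, these libraries were the 2 highest in 10 and the 2 lowest in 6.

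The kinases and factors upstream of the set, 26 of 26 tested, had a median log2 fold change of -0.08. With 6 positive and 20 negative values, none passed the test. Elk3, an SRF partner, was the only one with an unadjusted p under 0.05, at 124, 116 and 104 CPM in IL-4Rα+/+ and 91.9, 101 and 99.1 CPM in IL-4Rα-/-. Early inflammatory genes (22 of 24 tested, median log2 fold change -0.13) also had 0 calls. DESeq2 called 0 genes in either list. Rel, an NF-κB subunit, alone had an unadjusted p under 0.05, with 246, 204 and 150.3 CPM against 156, 111 and 149 CPM.

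Heat shock genes shared the lowest library of the set, as some marker lists of other cells did, but not its highest ones. Of 14 listed genes 13 were tested and 0 were called by edgeR or by DESeq2, with a median log2 fold change of 0.04. IL-4Rα+/+ replicate 3 and IL-4Rα-/- replicate 2 were the 2 highest for Hspa5 only, whereas IL-4Rα+/+ replicate 2 was the lowest library for 11 of the 13, against 18.6% of all genes tested. That library was also the lowest for 7 of 9 neutrophil markers and 7 of 10 markers of eosinophils, basophils and mast cells. Among early genes outside the set, it was the lowest for 16 of 34 other early response genes and for 4 of 21 genes of the same families. For T and NK cell markers the count was 0 of 8, and for early inflammatory genes 2 of 22. At an unadjusted p under 0.05 the co-chaperone Hspe1 was higher in IL-4Rα-/- (log2 fold change 0.31, SE 0.12) and Bag3 was lower (-0.64, SE 0.18). Hspa1a, named here after its values were seen, measured 98.5, 31.1 and 506 CPM in IL-4Rα+/+ and 119, 64.1 and 44.9 CPM in IL-4Rα-/-, so that IL-4Rα+/+ replicate 3 was high for Hspa1a as for Fos while IL-4Rα-/- replicate 2 was not. Its log2 fold change was -1.48 (SE 0.95) over all 6 libraries and 0.34 (SE 0.67) without both of these.

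Genes that mark monocyte subsets moved with the same 2 libraries. In bulk RNA, fewer cells of a type and less RNA per cell cannot be told apart. The lists of Ly6C high and of Ly6C low monocyte genes were both added after the data were seen. Of 8 Ly6C high genes, 7 (all but Ly6c2) were highest in IL-4Rα+/+ replicate 3 and IL-4Rα-/- replicate 2, against 17.4% of all genes tested. The 8 genes summed to 2254, 5188 and 11571 CPM in IL-4Rα+/+ and 4896, 13077 and 5611 CPM in IL-4Rα-/-. All 8 Ly6C low genes (Cx3cr1, Treml4, Spn, Itgal, Ace, Eno3, Pglyrp1 and Cd300e) were lowest in those 2 libraries, against 16.3% of all genes tested. They summed to 9237, 7308 and 4256 CPM in IL-4Rα+/+ and 6406, 3119 and 5854 CPM in IL-4Rα-/-. The orders were not identical, since IL-4Rα+/+ replicate 1 was lowest for all 8 Ly6C high genes and IL-4Rα+/+ replicate 2 for 9 of the 10 immediate early genes.

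Markers of other cells also differed between libraries, and no list was at 0 throughout. Neutrophil markers summed to 72.5, 57.1 and 253 CPM in IL-4Rα+/+ and 216, 629 and 119 CPM in IL-4Rα-/-, but only Mmp8, which is also on the Ly6C high list, was highest in IL-4Rα+/+ replicate 3 and IL-4Rα-/- replicate 2. Without Mmp8 the sums were 58.8, 20.8 and 82.4 CPM against 167, 324 and 69.3 CPM. Pancreatic enzymes, from tissue beside the spleen, reached 348 CPM in IL-4Rα-/- replicate 2 and lay between 10.4 and 52.1 CPM in the other libraries. Erythroid markers were at 57.1, 128 and 101 CPM against 167, 175 and 418 CPM, without overlap and in an order unlike that of the set. Gene by gene, 7 of 8 did not overlap between the genotypes, against 15.5% of all genes tested. An unadjusted p under 0.05 (edgeR) was also found for 7, all higher in IL-4Rα-/-, against 8.09% of all genes. The part of these cells in the levels of the immediate early genes was not tested.

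**Figure D5:**
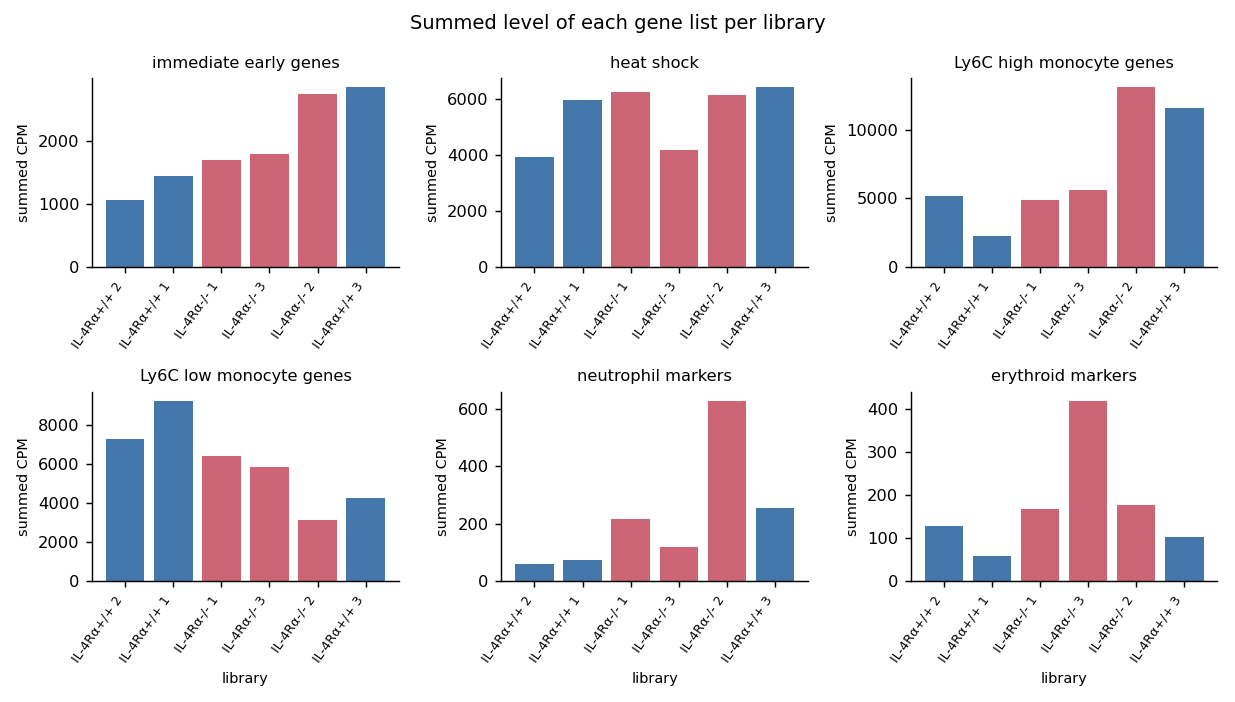
Summed TMM-scaled CPM of the immediate early genes and of 5 other gene lists in each library, as bars from 0, with IL-4Rα+/+ in blue, IL-4Rα-/- in red and libraries in the order of their mean level of the immediate early genes. The last 2 bars, IL-4Rα-/- replicate 2 and IL-4Rα+/+ replicate 3, are the tallest for the immediate early, Ly6C high and neutrophil lists and the shortest for the Ly6C low list, and in the neutrophil panel 170.5 of the 253 CPM of IL-4Rα+/+ replicate 3 are Mmp8, a gene also on the Ly6C high list.

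Over the 6 libraries the genes of the set were alike in profile to different degrees. The Pearson correlation of a gene's log2 CPM with the mean of the other 9 was 0.996 for Jun, 0.989 for Egr1, 0.989 for Zfp36, 0.977 for Fosb, 0.974 for Ier2, 0.970 for Fos and 0.954 for Junb. It was 0.899 for Dusp1, 0.692 for Atf3 and 0.201 for Nr4a2. These values rest on 6 points, with 2 libraries at the high end and IL-4Rα+/+ replicate 2 at the low end, and are given as a description.

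The 10 genes outside the set whose profile was most like its mean were Prps1 (r = 0.993), Ufm1 (0.992), Snora31 (0.988), Sf3a1 (0.987), Med31 (0.986), Ppp2r5d (0.983), Mrpl22 (0.983), Arf1 (0.982), Ipo9 (0.979) and 9230114K14Rik (0.978). None of them is on the lists of early genes. Their amplitude was smaller than that of Fos, with Arf1, a GTPase of vesicle traffic, running from 333 CPM in IL-4Rα+/+ replicate 2 to 412 CPM in IL-4Rα-/- replicate 2, and Prps1, an enzyme of nucleotide synthesis, from 14.1 to 23.7 CPM.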

How the data were processed

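Polyadenylated RNA of splenic monocytes, enriched by negative magnetic selection, was sequenced from strand-specific libraries. The authors aligned single-end reads to GRCm38 with STAR (2.6.1a per the submitters' processing notes, which also name bcl2fastq 2.19.1.403, RSEM and DESeq2 1.22.2) and deposited raw counts of reads per gene, without normalization. Which strand column was kept is not given in the sources used here. Summary lines for reads not on genes (21.1% to 22.8% of reads) were left out. Symbols, positions and 3′ UTRs came from GENCODE M21, in which 55240 of 55421 genes were found, and promoter windows from RefSeq.

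Libraries were grouped by genotype. Genes kept by filterByExpr (minimum count 10) were scaled by TMM, and the genotypes were compared in edgeR 4.0.16 (R 4.3.3) by the quasi-likelihood method without covariates, with Benjamini-Hochberg adjustment over 13849 genes and a threshold of 0.15. Intervals are 95% intervals of the same fit. DESeq2 1.42.0, RLE size factors, library totals, no filter, a threshold of 0.05, a replicate block, removal of length or GC trends and omission of each mouse were alternatives. Omission of 2 mice together and a term for Xist were added after seeing the data. Labels do not say whether the mice came from separate litters, and p-values measure the spread between these 6 mice. The fits were tested on simulated data.

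The members and lists were chosen with earlier results of these data known. Named were all members, Il4ra, from each related list the genes with an unadjusted p under 0.05 or else the 3 most abundant and the 2 with the largest log2 fold change, and the 10 genes most alike in profile. Other marker lists checked are given in the closing section.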

Additional observations from a re-analysis of the deposited data

How the results depend on the processing

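The count of genes called between the genotypes was 0 with edgeR and 80 with DESeq2, and 1 (Il4ra) when IL-4Rα+/+ replicate 3 and IL-4Rα-/- replicate 2 were left out together. The cause of the difference between the tools was not tested. Under every other setting run it was 0, including each omission of 1 mouse (0 to 0, smallest adjusted p by edgeR 0.172 to 0.901). The counts called among the immediate early genes and among the other early genes were 0 in every setting run, DESeq2 giving no adjusted p for Fosb. The median log2 fold change of the immediate early genes ran from -0.07 to 0.69 over 15 settings and turned negative in 2 of them, both omissions of 1 mouse (IL-4Rα+/+ replicate 2, -0.07, and IL-4Rα-/- replicate 2, -0.05). That of the other early genes ran from -0.10 to 0.02.

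The correlations of same-numbered deviations from the genotype means were 0.185, -0.271 and -0.296. Such values cannot show whether same-numbered mice shared a litter or a preparation. With the replicate block 0 genes were called, and the median of the immediate early genes was 0.29 and that of the other early genes 0.01. Fosb stood at 1.49 and Fos at 0.90 with the block. With the Xist term Fos stood at 0.55, Fosb at 0.60 and Egr1 at 0.13, and the median was 0.16. Nr4a2 had the fewest reads, at 32 to 55 per library. For the other genes, at 84 reads or more, the spread between 3 mice per genotype set the width of the intervals.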

Other observations

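Summed levels of the remaining marker lists are given as values. Monocyte markers ran from 14443 to 25263 CPM, lowest in IL-4Rα+/+ replicate 1 and highest in IL-4Rα-/- replicate 2. Markers of red pulp macrophages, the iron-recycling cells of the spleen, summed to 4067, 3680 and 3560 CPM in IL-4Rα+/+ and 7209, 5010 and 4611 CPM in IL-4Rα-/-, without overlap. Of their 10 genes 6 did not overlap, against 15.5% of all genes tested, and 6 had an unadjusted p under 0.05, against 8.09%. B and plasma cell markers (374, 424 and 391 CPM against 909, 758 and 679 CPM) and markers of eosinophils, basophils and mast cells (35.8, 12.2 and 27.0 CPM against 81.7, 46.6 and 69.3 CPM) did not overlap in their sums either, but gene by gene this held for 1 of 8 and for 6 of 10. Markers of T and NK cells (39.4 to 109 CPM), dendritic cells (161 to 248 CPM), stromal and endothelial cells (73.8 to 130.3 CPM) and megakaryocytes and platelets (2.93 to 7.03 CPM) overlapped between the genotypes. No gene of these lists or of the neutrophil, erythroid and pancreatic lists passed the edgeR test after adjustment, and DESeq2 called 7 of the 74 genes of other cell types with an adjusted p (9.46%, against 0.571% of all genes), Camp, Igha, Hba-a1, Hbb-bt, Slc4a1, Cpa3 and Ms4a2, named after their values were seen.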
